A study of Homo sapiens with 15 samples.

Results

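RNA of 10 genes of squamous differentiation and of the S100 family was followed in MCF10A cells grown with little glutamine. The genes were taken by symbol from a table of counts for 62754 genes; the rule uses no measured value, but the set was chosen with earlier results of these data known. They were IVL, SPRR1A, SPRR1B, S100A2, S100A8, S100A9, LCN2, SFN, DSG3 and DSC3, and all 10 had at least 1 count. MCF10A is a non-tumorigenic line of human breast epithelial cells, used here without a genetic change. Cells were grown in glutamine-free DMEM/F12 to which glutamine was added at 1 of 4 low levels, 0.04, 0.12, 0.20 or 0.28 mM, or in full medium with 2.5 mM. Each of the 5 groups had 3 biological replicates (15 libraries of total RNA depleted of ribosomal RNA), and how long the cells were kept in these media is not given in the sources used here.

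Stratified epithelia replace themselves from a basal layer whose cells leave the cycle, flatten and crosslink a protein envelope under the membrane. Involucrin and the small proline-rich proteins are substrates of that envelope and are rich in glutamine residues, at which transglutaminases form the crosslinks. Desmosomal cadherins hold the cells together, and S100 proteins and lipocalin bind calcium, zinc or siderophores and are made in quantity by stressed or inflamed epithelia. Basal-type breast cells such as MCF10A share part of this programme with the epidermis.

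The genes of the set that code for envelope proteins stand out in their own sequence. In GENCODE 29 coding sequences, glutamine codons (CAA and CAG) made up 150 of the 585 codons of IVL, or 25.6%, and only 3 of 19488 coding genes had a higher share. SPRR1A had 19.1% and SPRR1B 18.0%, with 13 and 19 genes higher, and the other 7 members had 2.15 to 6.19% around a median of 4.39% for all genes. The coding sequences of SPRR1A and SPRR1B were identical at 257 of 267 bases (96.3%). Reads of these genes may therefore have been split or lost in counting, and their counts are uncertain.

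**Figure D1:**
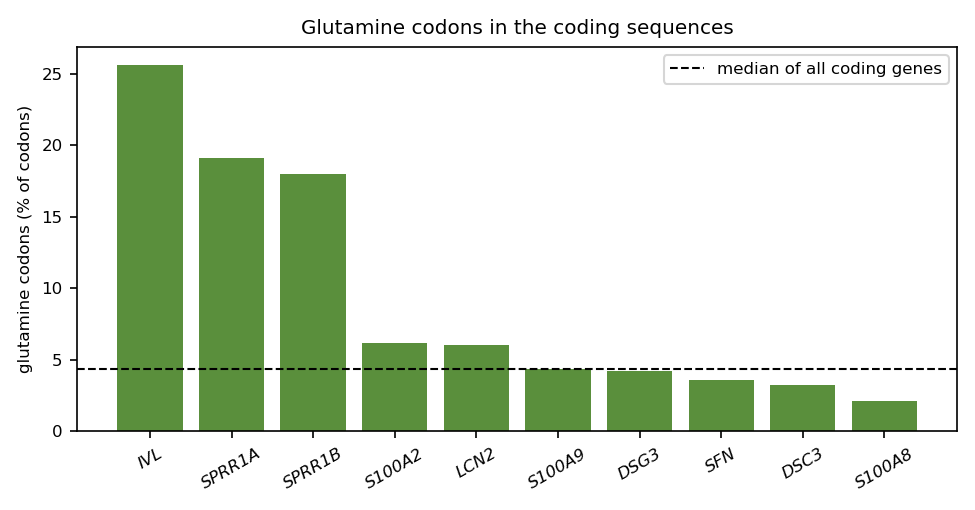
Share of glutamine codons (% of all codons, vertical axis) in the coding sequence of each of the 10 genes, with a dashed line at the median of 19488 coding genes. IVL at 25.6%, SPRR1A at 19.1% and SPRR1B at 18.0% lie far above the line at 4.39%, and the other 7 genes lie between 2.15 and 6.19%.

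Of the 10, 6 lie together on chromosome 1 in the epidermal differentiation complex, a cluster of envelope and S100 genes. In GRCh38.p14 (RefSeq genes) these are IVL at chr1:152908546-152911886, SPRR1A at chr1:152984081-152985814, SPRR1B at chr1:153031203-153032900 and S100A9 at chr1:153357854-153361023 on the plus strand, with S100A8 at chr1:153390032-153422583 and S100A2 at chr1:153561108-153565844 on the minus strand. SFN lies on the same chromosome at chr1:26863149-26864456, LCN2 at chr9:128149453-128153453, and the desmosomal pair at chr18:31447741-31478702 (DSG3) and chr18:30989365-31042742 (DSC3, minus strand). No exon of the 10 genes overlapped an exon of another gene in GENCODE 29.

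The 250 bases before the RefSeq start of each gene were searched for TGANTCA, which reads the same on both strands. This pattern is wider than the AP-1 motif, TGAGTCA or TGACTCA, as it allows any central base. Its matches are called AP-1 matches here. The pattern was present in 6 of the 10 windows (IVL, SPRR1A, SPRR1B, S100A2, LCN2 and SFN), against 6.57% of 35116 such windows and 8.06% of genes. IVL and SPRR1A held TGAGTCA, S100A2 TGACTCA, and SPRR1B both TGAGTCA and TGAATCA. LCN2 held only TGAATCA and SFN only TGATTCA, which are not forms of the AP-1 motif itself. TATAAA was present on either strand in IVL, SPRR1A, S100A8 and S100A9, against 10.7% of windows. It began 126 bases before the start used in S100A8, against 30 bases in IVL and 29 bases in SPRR1A and S100A9. The S100A8 window lies inside the RefSeq span of that gene given above. S100A8 has 3 listed starts and S100A2 2, and the start nearest the GENCODE principal transcript was used. The windows of the envelope genes and SFN are shown for the matches they hold and that of S100A9, the member called at 2 concentrations with the replicate block, for comparison; capitals mark AP-1 matches, 5′ to 3′ on the gene's strand (RefSeq, GRCh38.p14).
IVL, chr1:152908296-152908545, plus strand: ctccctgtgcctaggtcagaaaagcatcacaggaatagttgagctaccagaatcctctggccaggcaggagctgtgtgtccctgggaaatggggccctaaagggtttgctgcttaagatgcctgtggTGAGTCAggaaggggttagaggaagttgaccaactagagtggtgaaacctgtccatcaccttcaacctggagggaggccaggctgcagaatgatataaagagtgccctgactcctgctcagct
SPRR1A, chr1:152983831-152984080, plus strand: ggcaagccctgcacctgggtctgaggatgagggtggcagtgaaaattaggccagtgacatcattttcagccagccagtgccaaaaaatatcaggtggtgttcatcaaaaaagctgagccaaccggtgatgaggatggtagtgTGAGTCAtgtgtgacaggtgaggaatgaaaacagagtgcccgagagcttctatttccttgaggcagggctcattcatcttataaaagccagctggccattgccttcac
SPRR1B, chr1:153030953-153031202, plus strand: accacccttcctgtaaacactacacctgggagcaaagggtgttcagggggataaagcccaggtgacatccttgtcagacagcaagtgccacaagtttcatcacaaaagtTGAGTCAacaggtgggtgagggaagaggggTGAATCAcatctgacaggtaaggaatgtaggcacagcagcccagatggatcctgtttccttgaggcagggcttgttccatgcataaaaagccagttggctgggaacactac
SFN, chr1:26862899-26863148, plus strand: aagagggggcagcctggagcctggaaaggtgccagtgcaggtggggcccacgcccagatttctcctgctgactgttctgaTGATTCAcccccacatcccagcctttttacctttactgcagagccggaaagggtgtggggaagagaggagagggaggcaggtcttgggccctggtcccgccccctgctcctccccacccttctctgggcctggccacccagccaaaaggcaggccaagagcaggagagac
S100A9, chr1:153357604-153357853, plus strand: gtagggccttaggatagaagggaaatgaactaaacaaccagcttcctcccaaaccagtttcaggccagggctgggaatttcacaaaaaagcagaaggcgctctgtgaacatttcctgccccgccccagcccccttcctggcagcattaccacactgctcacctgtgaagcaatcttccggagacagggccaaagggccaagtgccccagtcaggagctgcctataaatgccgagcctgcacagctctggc
The match in IVL begins 123 bases before the start, that in SPRR1A 108 bases, those in SPRR1B 141 and 111 bases, and that in SFN 170 bases. The windows of SPRR1A and SPRR1B were identical at 172 of 263 aligned positions (65.4%). S100A9 holds no AP-1 match in these 250 bases, and neither do the windows of S100A8, DSG3 and DSC3.

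Libraries held 3704170 to 13361406 gene counts, and ERCC spike-ins, synthetic RNAs added to each sample, took 1.03 to 1.58% of counts. In 2 libraries, replicate 3 at 0.04 mM and at 0.12 mM, mitochondrial ribosomal RNA took 2.97 and 1.62% of counts, against under 1% in the others. All 11 genes of the list of basal breast epithelial markers passed the filter on low counts. They summed to 16700 to 27700 CPM (TMM-scaled counts per 1e6), against 479 to 610 CPM for the 9 luminal markers, of which 4 passed. CDH1 and EPCAM in the basal list are not particular to basal cells, and their group means were 81.2 to 90.3 and 4.19 to 6.92 CPM. Same-numbered replicates of different groups deviated from their group means together, so tests are given with the replicate number as a block and without it. The words rose and fell mean an adjusted p under 0.05 with the block (edgeR quasi-likelihood test, Benjamini-Hochberg over 13828 genes). No member, and no gene of the lists of related genes below, passed without the block. Per-library values are in the order of replicates 1, 2 and 3.

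The members spanned a wide range of levels. Per kilobase of exon, S100A2 averaged 1974 CPM and SFN 923 CPM over the 15 libraries, among the most abundant transcripts of these cells. S100A9 averaged 148, S100A8 39.3, DSC3 22.9, DSG3 15.3, SPRR1B 5.49 and IVL 0.449 CPM per kilobase. The filter kept 8 members. SPRR1A, with 46 counts in all and 5 libraries at 0, and LCN2, with 12 counts and 10 libraries at 0, did not pass it, and they enter no test that uses this filter. IVL passed on 153 counts and SPRR1B on 483, so their fold changes are imprecise.

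Of the 8 tested members, S100A8 and S100A9 rose at 0.12 mM, S100A9 and DSC3 rose at 0.20 mM, and none passed at 0.04 or 0.28 mM. None fell. With the block, 7.21% of all tested genes rose and 6.23% fell at 0.04 mM against full medium, 4.41% rose and 3.9% fell at 0.12 mM, 7.67% rose and 7.15% fell at 0.20 mM, and 1.23% rose and 0.846% fell at 0.28 mM. In either direction these were 13.4, 8.31, 14.8 and 2.08%. Without it, 0.0434% of genes passed at 0.04 mM, 0% at 0.12 mM, 0.0145% at 0.20 mM and 0% at 0.28 mM. Members with an unadjusted p under 0.05 numbered 2 of 8 at 0.04 mM, 3 at 0.12 mM, 4 at 0.20 mM and 1 at 0.28 mM with the block, and 0, 1, 2 and 0 without it. Of all 13828 genes, 3749, 3090, 3931 and 2196 had such a p with the block, and 1609, 1111, 1415 and 616 without it. DESeq2 with the block called 1, 2, 3 and 0 members, and none without it. The 4 comparisons share the full-medium libraries and are not independent of each other. The median log2 fold change of the 8 members was 0.02 at 0.04 mM, 0.12 at 0.12 mM, -0.03 at 0.20 mM and 0.06 at 0.28 mM, beside medians of all genes that were 0.01 or less.

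**Figure D2:**
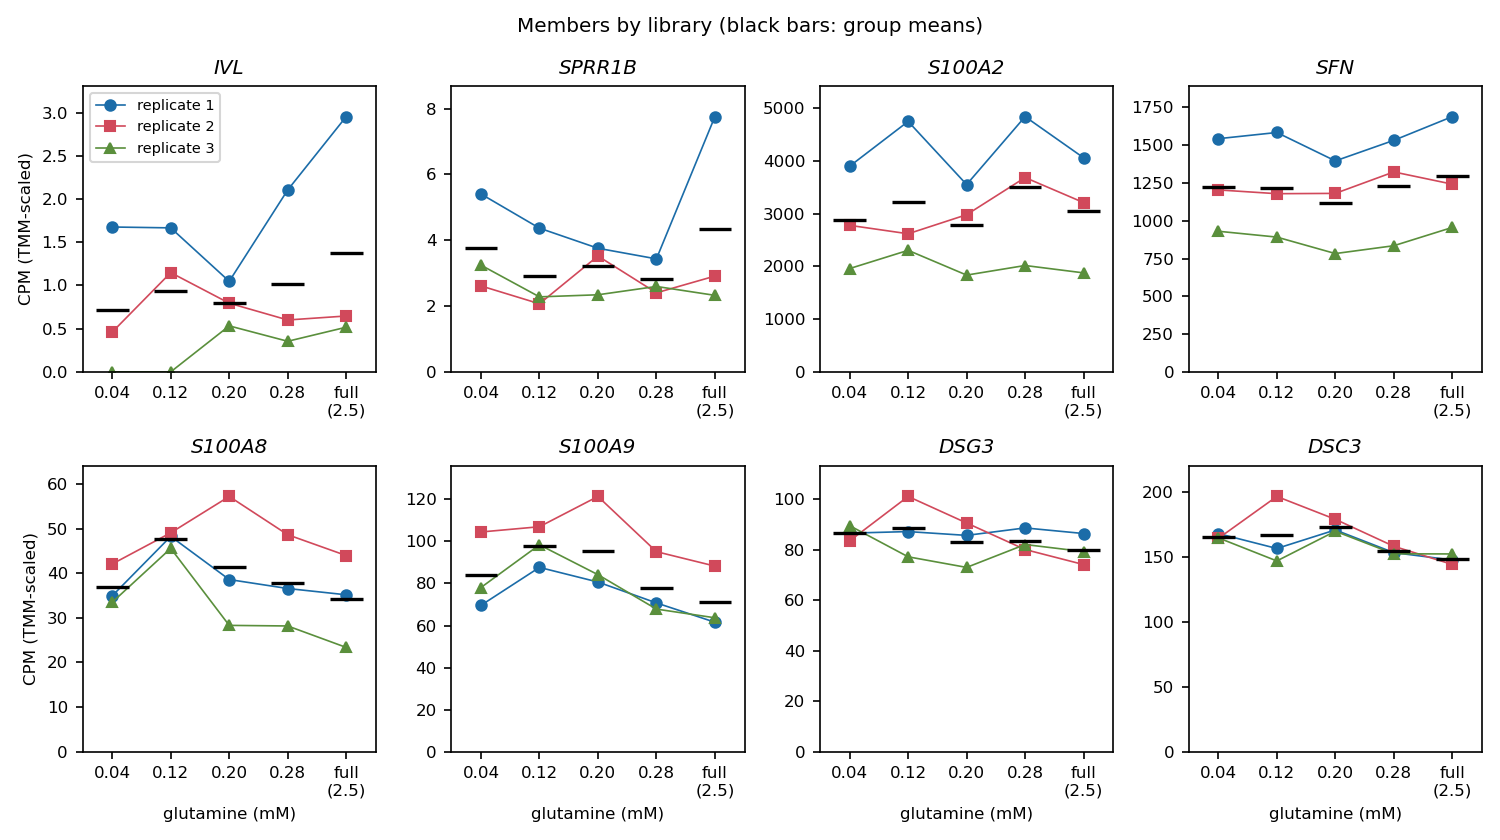
CPM (vertical axes, linear from 0) of the 8 tested members in every library against glutamine (mM, equally spaced), with lines joining libraries of the same replicate number and black bars at group means. S100A9 lies above its own full-medium library in all 12 limited libraries, while S100A2 and SFN are ordered by replicate number in every group.

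S100A9 and S100A8 code for the subunits of calprotectin, a calcium- and zinc-binding protein that starves microbes of metal. S100A9 was at 69.6, 105 and 78.1 CPM with 0.04 mM glutamine, at 87.7, 107 and 98.4 CPM with 0.12 mM and at 80.7, 121 and 84.2 CPM with 0.20 mM. It was at 70.8, 95.1 and 67.8 CPM with 0.28 mM and at 61.6, 88.3 and 63.7 CPM in full medium. Replicate 2 was highest in each group, every limited library exceeded the full-medium library of its number, and the group ranges overlapped in all 4 comparisons. Group means ± SD (n = 3) were 84.1 ± 18.2, 97.7 ± 9.69, 95.4 ± 22.5 and 77.9 ± 15 CPM from 0.04 to 0.28 mM and 71.2 ± 14.8 CPM in full medium.

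With the block, S100A9 rose 1.38-fold at 0.12 mM (log2 fold change 0.47, SE 0.078, adjusted p 0.000368) and 1.34-fold at 0.20 mM (0.42, SE 0.077, adjusted p 0.000497). Without the block the adjusted p-values were 0.589 and 0.465. Both calls held on leaving out any 1 of the 6 libraries compared, and neither held with ERCC scaling (0.28, adjusted p 0.137, and 0.36, adjusted p 0.0865). At 0.04 mM the log2 fold change was 0.23 (95% interval 0.07 to 0.40), just outside the threshold at an adjusted p of 0.0514, and at 0.28 mM it was 0.13 (-0.03 to 0.29, adjusted p 0.41). The order of the levels was 0.12, 0.20, 0.04, 0.28 mM and full medium, and neighbours in concentration could not be separated: 0.04 against 0.12 mM had an adjusted p of 0.998, 0.12 against 0.20 mM 0.924 and 0.20 against 0.28 mM 0.0667.

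S100A8 was at 34.9, 42.1 and 33.5 CPM with 0.04 mM, at 48.3, 49.1 and 45.6 CPM with 0.12 mM and at 38.6, 57.2 and 28.3 CPM with 0.20 mM. It was at 36.6, 48.6 and 28.2 CPM with 0.28 mM and at 35.2, 44.0 and 23.4 CPM in full medium. The 0.12 mM libraries all lay above the full-medium ones and close to each other, while the other limited groups overlapped full medium; ranges did not overlap for 12.2% of all genes in this comparison. S100A8 rose 1.41-fold at 0.12 mM (log2 fold change 0.49, SE 0.117, adjusted p 0.0074, higher in 3 of 3 pairs, adjusted p 0.645 without the block). The call was lost without replicate 3 at 0.12 mM or without replicate 3 of full medium (log2 fold changes over the 6 omissions 0.36 to 0.66, adjusted p up to 0.0664), without the 2 libraries high in mitochondrial ribosomal RNA, and with ERCC scaling (0.32, adjusted p 0.126). The difference was 0.10 at 0.04 mM (95% interval -0.15 to 0.35), 0.26 at 0.20 mM (0.02 to 0.50, adjusted p 0.134) and 0.14 at 0.28 mM (-0.10 to 0.38).

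S100A8 and S100A9 are also abundant in neutrophils and monocytes. Of 12 leukocyte markers, 7 had 0 counts in every library, CSF3R, FCGR3B, ELANE, AIF1, CD3E, MS4A1 and TYROBP, and 2 passed the filter, MPO and CD14. The 12 summed to 3.51 to 6.45 CPM at 0.04 mM, 4.56 to 6.09 at 0.12 mM, 3.73 to 6.93 at 0.20 mM and 2.24 to 5.17 at 0.28 mM, and to 2.07 to 3.34 CPM in full medium. MPO, the neutrophil peroxidase, rose with the block at 0.12 mM (log2 fold change 1.42, SE 0.406, adjusted p 0.0252) and at 0.20 mM (1.53, SE 0.394, adjusted p 0.00822), at group means of 3.10 and 3.24 CPM, against 1.05 CPM in full medium. CD14 did not pass at 0.12 mM (0.09, SE 0.396, adjusted p 0.928). Its group means were 1.67 CPM at 0.12 mM, 1.55 CPM at 0.20 mM and 1.64 CPM in full medium. The remaining markers PTPRC, ITGAM and CD68 had 1, 29 and 9 counts in all. Fibroblast markers, of which LUM and THY1 had 0 counts and 4 of 10 passed, summed to 159 to 184 CPM at 0.04 mM, 143 to 184 at 0.12 mM, 139 to 195 at 0.20 mM and 121 to 183 at 0.28 mM, and to 110 to 168 CPM in full medium. Of these DCN, the proteoglycan decorin, rose with the block at 0.04 mM (0.62, SE 0.125, adjusted p 0.00108), 0.12 mM (0.49, adjusted p 0.00931) and 0.20 mM (0.65, adjusted p 0.000425), and the collagen gene COL1A1 at 0.04 mM (0.46, adjusted p 0.0193). At 0.04 mM the fibroblast markers FAP (0.24, adjusted p 0.342) and POSTN (0.19, adjusted p 0.136) did not pass. Of the basal list LAMB3 (0.51, adjusted p 0.000153) and ITGB4 (0.28, adjusted p 0.0222) rose at 0.04 mM, and the luminal marker KRT8 fell (-0.20, adjusted p 0.0444). The other tested genes of the basal and luminal lists did not pass there. With ERCC scaling and the block, DCN and LAMB3 still passed at 0.04 mM, while COL1A1, ITGB4 and KRT8 did not. With that scaling DCN passed at 0.20 mM but not at 0.12 mM, and MPO passed at both. The part of any of these marker lists in the S100 and DSC3 results was not tested.

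DSC3 and DSG3 code for desmocollin and desmoglein of basal epithelial cells, cadherins that bind across the gap between cells. DSC3 was at 168, 164 and 165 CPM with 0.04 mM, at 157, 197 and 147 CPM with 0.12 mM and at 171, 179 and 170 CPM with 0.20 mM. It was at 153, 158 and 153 CPM with 0.28 mM and at 148, 144 and 152 CPM in full medium. All libraries at 0.04, 0.20 and 0.28 mM lay above all full-medium libraries, as for 15.2, 15.5 and 9.29% of all genes whose ranges did not overlap, in either direction, in those comparisons. At 0.28 mM the separation was marginal, with the lowest library at 152.5 CPM and the highest of full medium at 152.4 CPM. DSC3 rose 1.17-fold at 0.20 mM (log2 fold change 0.23, SE 0.072, adjusted p 0.0326, against 0.464 without the block). The call was lost without any 1 of the 0.20 mM replicates 1, 2 and 3 or replicate 2 of full medium (0.17 to 0.27, adjusted p up to 0.189), with ERCC scaling, with the 2 groups alone and at equal depth. At 0.04 mM the difference was 0.16 (95% interval 0.01 to 0.31, adjusted p 0.151), at 0.12 mM 0.17 (0.02 to 0.32, adjusted p 0.159) and at 0.28 mM 0.06 (-0.09 to 0.21).

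DSG3 was at 86.5, 83.4 and 89.4 CPM with 0.04 mM, at 87.1, 101 and 77.1 CPM with 0.12 mM and at 85.6, 90.5 and 72.9 CPM with 0.20 mM. It was at 88.5, 80.0 and 82.0 CPM with 0.28 mM and at 86.3, 74.1 and 79.2 CPM in full medium. The groups overlapped throughout, and no comparison passed. The largest difference was 0.15 at 0.12 mM (95% interval -0.03 to 0.32, adjusted p 0.315), and it turned to -0.02 with ERCC scaling.

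S100A2, a calcium-binding protein of basal epithelial cells, and SFN, the 14-3-3 protein stratifin that binds phosphorylated partners and holds the cell cycle, were the abundant members. S100A2 was at 3902, 2780 and 1960 CPM with 0.04 mM, at 4752, 2620 and 2306 CPM with 0.12 mM and at 3554, 2982 and 1836 CPM with 0.20 mM. It was at 4843, 3687 and 2018 CPM with 0.28 mM and at 4062, 3212 and 1878 CPM in full medium. The groups overlapped across nearly their whole range, and replicate 1 was highest and replicate 3 lowest in each. The log2 fold changes were -0.07, 0.09, -0.11 and 0.19 from 0.04 to 0.28 mM (adjusted p 0.682, 0.639, 0.473 and 0.319), and the 95% intervals with the block reached no further than -0.30 and 0.38. With ERCC scaling the value at 0.12 mM turned to -0.12.

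SFN was at 1543, 1204 and 930.4 CPM with 0.04 mM, at 1584, 1179 and 891.8 CPM with 0.12 mM and at 1396, 1181 and 782.8 CPM with 0.20 mM. It was at 1532, 1323 and 834.7 CPM with 0.28 mM and at 1689, 1242 and 955.7 CPM in full medium. The groups overlapped, and at 0.04, 0.12 and 0.20 mM each library was below the full-medium library of its number. The difference at 0.20 mM, -0.21 on the log2 scale (95% interval -0.37 to -0.06), missed the threshold with an adjusted p of 0.0553, and it passed under 4 of 8 other settings with the block. The other 3 differences lay between -0.07 and -0.09, with adjusted p from 0.526 to 0.652.

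The envelope genes IVL and SPRR1B were low everywhere. IVL, with 0 to 32 counts a library, was at 1.68, 0.46 and 0 CPM with 0.04 mM, at 1.67, 1.15 and 0 CPM with 0.12 mM and at 1.05, 0.80 and 0.53 CPM with 0.20 mM. It was at 2.11, 0.60 and 0.35 CPM with 0.28 mM and at 2.96, 0.65 and 0.52 CPM in full medium. Replicate 1 was highest in each group, and the ranges overlapped. A count of 0 allows up to 3 counts, which is 0.811 CPM in replicate 3 at 0.04 mM and 0.570 CPM in replicate 3 at 0.12 mM (counting error only). The log2 fold changes of IVL ran from -0.82 at 0.04 mM to -0.39 at 0.28 mM, and their 95% intervals spanned -1.95 to 0.31 at 0.04 mM and -1.42 to 0.64 at 0.28 mM, so changes of these sizes were not detectable in these libraries.

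SPRR1B, with 483 counts in all, was at 5.41, 2.61 and 3.24 CPM with 0.04 mM, at 4.37, 2.07 and 2.28 CPM with 0.12 mM and at 3.76, 3.52 and 2.34 CPM with 0.20 mM. It was at 3.43, 2.40 and 2.60 CPM with 0.28 mM and at 7.76, 2.91 and 2.33 CPM in full medium. Replicate 1 of full medium stood above every other library. The log2 fold changes were -0.19, -0.55, -0.39 and -0.59 from 0.04 to 0.28 mM (adjusted p 0.713, 0.253, 0.38 and 0.301), and without that library they were 0.24, -0.12, 0.02 and -0.17. SPRR1A had 3 counts over the 3 libraries at 0.04 mM, 7 at 0.12 mM, 11 at 0.20 mM, 9 at 0.28 mM and 16 in full medium, 15 of them in replicate 1. LCN2, the siderophore-binding lipocalin, had 0 counts at 0.04 and 0.20 mM, 3 at 0.12 mM, 4 at 0.28 mM and 5 in full medium. At 3 counts a library, the limit that 0 allows was 0.28 to 0.811 CPM at 0.04 mM and 0.262 to 0.341 CPM at 0.20 mM, so a difference in LCN2 was not detectable at this depth.

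**Figure D3:**
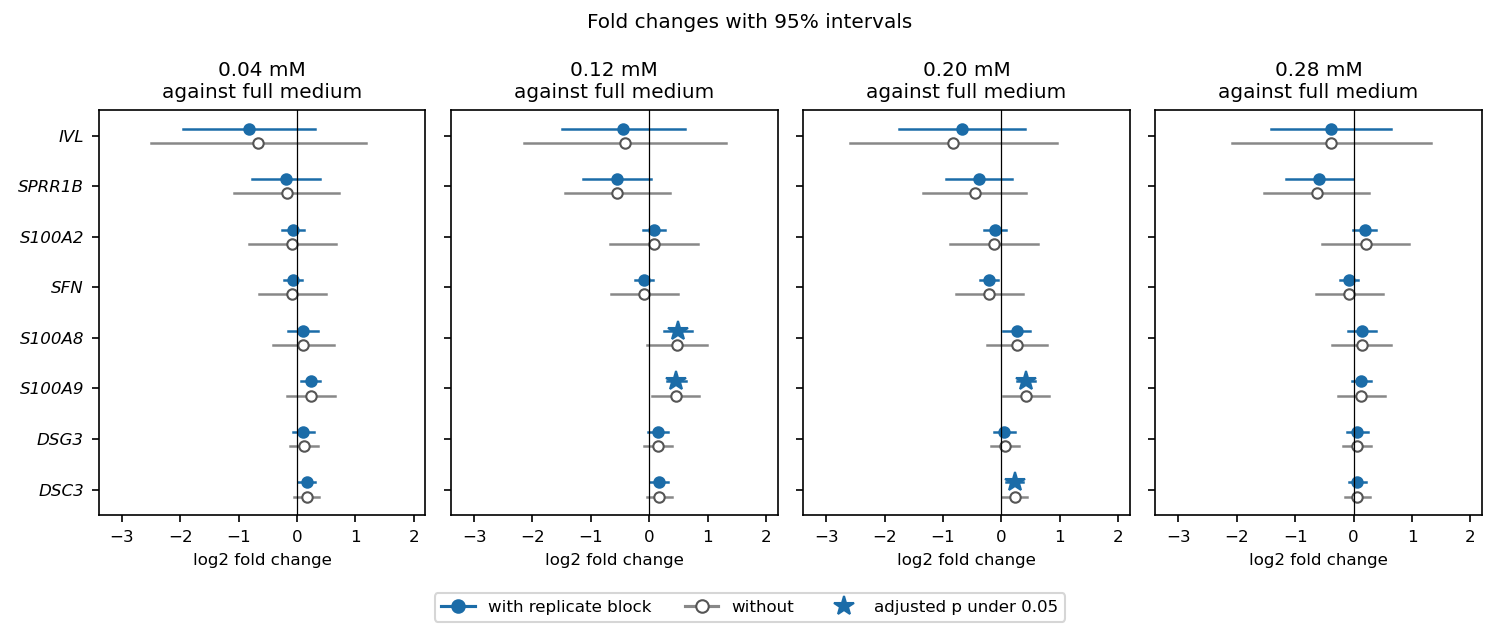
Log2 fold changes of the 8 tested members (rows) against full medium at each limited glutamine level (0.04 to 0.28 mM), with 95% intervals, from the fit with the replicate block (filled) and without it (open). Stars mark adjusted p under 0.05: S100A8 and S100A9 at 0.12 mM and S100A9 and DSC3 at 0.20 mM, all with the block.

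Among the limited groups the members did not separate. None of the 8 passed for 0.04 against 0.28 mM, where 0.0434% of genes did with the block (0.0145% higher and 0.0289% lower) and 0% without, and none in the 3 comparisons of adjacent concentrations, where 0.00723, 0.0145 and 0.701% of genes did with the block and 0% without. Members with an unadjusted p under 0.05 in these 3 numbered 2, 1 and 3 with the block and 0 without. Of all 13828 genes, 580, 886 and 1925 had such a p with the block, and 190, 146 and 295 without. With the block, 1 member had an unadjusted p under 0.05 at 0.04 against 0.28 mM, S100A2 (log2 fold change -0.26, 95% interval -0.45 to -0.07, adjusted p 0.386). So did 1247 of all 13828 genes. None had a slope over log2 glutamine in the 12 limited libraries, where no gene of 13631 passed in edgeR and no member had an unadjusted p under 0.05. Of these 13631 genes, 1049 had such a p with the block and 297 without. The slopes of the 6 members other than IVL and SPRR1B lay between -0.02 and 0.06 per doubling.

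The replicate number held more of the variance than the glutamine group for every tested member but DSC3. In an F test of the replicate number, chosen after the resemblance of same-numbered libraries was seen, 50.2% of all genes passed and so did S100A2 (adjusted p 3.17e-12), SFN (9.94e-12), S100A9 (1.07e-07), S100A8 (7.19e-06), IVL (0.000154) and SPRR1B (0.00072), but not DSG3 (0.25) or DSC3 (0.293). The replicate number held 93.7% of the variance of log2 CPM for SFN, 89.0% for S100A2, 72.0% for IVL and 64.0% for SPRR1B, beside a median of 36.7% over all genes. The glutamine group held 3.89, 5.15, 8.84 and 13% for the same 4 genes, with a median of 24.0% over all genes. For DSC3 the group held 47.6% and the replicate number 12%.

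Members of the set differed in which replicate was high. Replicate 1 exceeded the mean of replicates 2 and 3 by 1.88 (log2, SE 0.349) for IVL, by 0.89 (SE 0.184) for SPRR1B, by 0.77 (SE 0.061) for S100A2 and by 0.58 (SE 0.050) for SFN. For S100A9 the same difference was -0.28 (SE 0.052) and for S100A8 -0.0016 (SE 0.079), and replicate 2 was the highest for both in every group. S100A2 and SFN varied together over the 15 libraries (Pearson r 0.951), as did IVL and SFN (0.808). With the mean of each replicate number removed those values were 0.458 and -0.058, while S100A8 and S100A9 stood at 0.827 and DSG3 and DSC3 at 0.659. These correlations describe 15 libraries that share groups and scaling. Replicate 1 was also the deepest library of each group, and what the numbers stand for is not given in the labels. With all libraries thinned to the depth of the shallowest, 5 of the 6 members still passed the F test, and IVL was not among the genes tested at that depth. Of all genes tested at that depth, 46.2% passed.

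**Figure D4:**
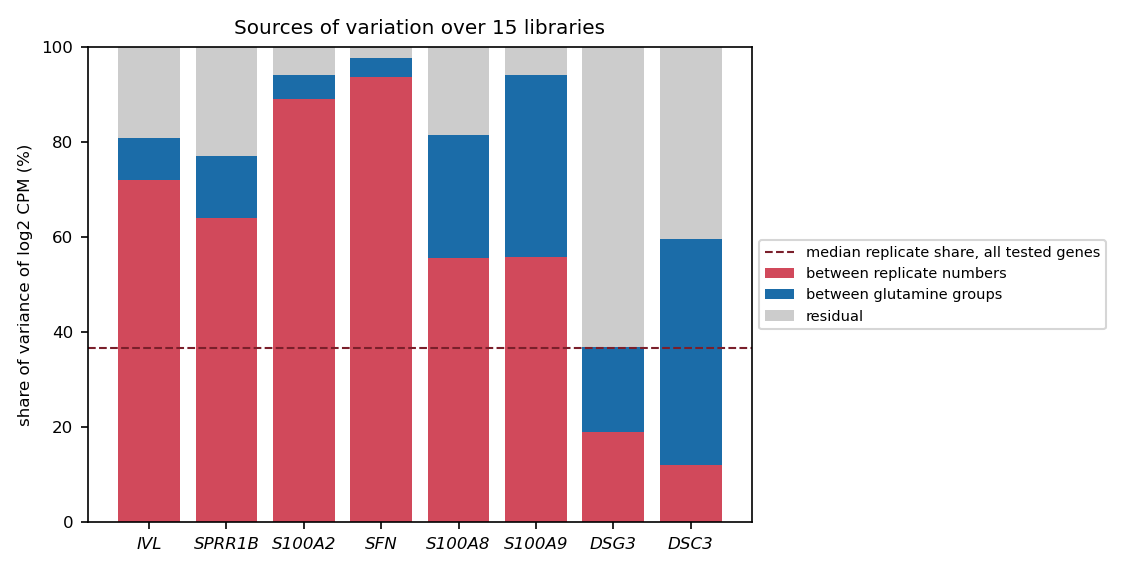
Share of the variance of log2 CPM over the 15 libraries (%, vertical axis) between replicate numbers, between glutamine groups and left as residual, for the 8 tested members. The dashed line is the median replicate share of all genes (36.7%), which SFN (93.7%) and S100A2 (89.0%) exceed most and DSG3 (19.0%) and DSC3 (12%) do not reach.

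Genes whose pattern over the 15 libraries was most like that of a member, with the mean of each replicate number removed, were RAB38 (r 0.935), ZNF480 (0.907) and ATP1B3 (0.891) for S100A9. For S100A8 they were HEBP2 (0.912), S100A6 (0.857) and ZBTB17 (0.85), and for DSC3 TAF2 (0.91), SLC9A7 (0.889) and ZBTB8A (0.885). DSG3 was most like SNX9 (0.898), UBE3B (0.891) and TENM3 (0.889), and SFN most like HMGA1 (0.916), BAG3 (0.911) and CNOT3 (0.896). For S100A2 they were RPL10 (0.926), RPS19 (0.919) and LGALS1 (0.902), of which RPL10 and RPS19 code for ribosomal proteins, for SPRR1B MAN1A1 (0.835), NAA80 (0.799) and MT2A (0.792), and for IVL CBFB (0.824), ZNF165 (0.823) and PPP1R37 (0.823). These are the highest of about 10306 genes of at least 5 CPM, so values of this size say little by themselves.

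Lists of related genes, which leave the members out, were set beside the members. Of 45 genes of the cornified envelope list, 11 passed the filter. The list is wider than the proteins of the envelope and includes a lipid transporter and a secreted protein. Of the 11, 3 rose and 1 fell at 0.04 mM and at 0.12 mM, 4 rose and 1 fell at 0.20 mM, and 1 rose at 0.28 mM. The median of the 11 was 0.28, 0.22, 0.16 and 0.19 from 0.04 to 0.28 mM. ABCA12, a lipid transporter of the skin barrier, rose at all 4 concentrations (log2 fold change 0.67, SE 0.092, adjusted p 1.36e-05 at 0.04 mM), with group means of 103, 95, 94.4 and 84.8 CPM, against 64.5 CPM in full medium. PPL, the plakin periplakin (54.0 CPM at 0.04 mM against 39.2 CPM in full medium), and CSTA, the protease inhibitor cystatin A (73.8 against 51.9 CPM), rose at 0.04, 0.12 and 0.20 mM, by 0.41 and 0.49 at 0.04 mM. The secreted dermokine DMKN fell at the same 3 concentrations, to 44.2 CPM at 0.04 mM against 62.5 CPM in full medium. The fourth gene that rose at 0.20 mM was ANXA1, a calcium-dependent phospholipid-binding protein (log2 fold change 0.24, adjusted p 0.0326), named here after its value was seen. With ERCC scaling, chosen for the lists after the data were seen, 2 of the 11 rose and 1 fell at 0.04 and at 0.20 mM, 1 fell at 0.12 mM and none passed at 0.28 mM. ABCA12 and CSTA then rose at 0.04 mM (0.67, adjusted p 0.000509, and 0.49, adjusted p 0.0213) and at 0.20 mM, and DMKN fell at 3 concentrations, while PPL did not pass.

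Genes of the upper epidermal layers in these lists differed in level, and those given here were chosen after their values were seen. Loricrin and S100A7 had 0 counts in all 15 libraries, as did DSC1, the desmocollin of upper layers. Filaggrin (FLG) had 18 counts in all, DSG1 5 and KRT1 2. The suprabasal keratin KRT10 was well above 0, at group means of 14.1, 13.8, 12.9 and 13.7 CPM from 0.04 to 0.28 mM and 11.5 CPM in full medium. The crosslinking enzyme transglutaminase 1 (TGM1) was at 13.9, 12.7, 12.3 and 12.3 CPM, and 10.9 CPM in full medium.

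In the S100 list 8 of 17 genes were tested; S100A3 alone rose at 0.04 mM (log2 fold change 0.52, SE 0.143, adjusted p 0.0143) and S100A4 alone at 0.12 mM (0.49, SE 0.119, adjusted p 0.00827), and none at 0.20 or 0.28 mM. The abundant S100A6 and S100A14 differed by 0.09 and 0.08 at 0.04 mM and did not pass. In the desmosome list 9 of 12 were tested; the tetraspan protein PERP rose at 0.04 mM (0.20, SE 0.068, adjusted p 0.0418) and at 0.20 mM (0.21, adjusted p 0.0287), where the plaque protein plakophilin 3 (PKP3) fell (-0.27, SE 0.062, adjusted p 0.00346). None passed at 0.12 or 0.28 mM. The cadherin DSG2 and the plaque protein JUP each differed by 0.16 at 0.04 mM (adjusted p 0.0942 and 0.136).

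None of the 6 other 14-3-3 genes passed in any of these comparisons, and YWHAZ at 0.20 mM came nearest (0.19, adjusted p 0.0914). Of 19 antimicrobial genes of epithelia 9 were tested, and complement C3 alone passed, at 0.04 mM (0.27, SE 0.079, adjusted p 0.0174). Of the regulators of squamous differentiation reported here, the transcription factor CEBPB alone passed, and rose at 0.04 mM (0.32, SE 0.070, adjusted p 0.00238) and at 0.12 mM (0.30). With ERCC scaling neither CEBPB nor any of the antimicrobial genes or 14-3-3 genes passed at any concentration; of the S100 list S100A3 passed at 0.04 mM, and of the desmosome list PKP3 alone passed, at 0.12 mM, where it was lower.

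**Figure D5:**
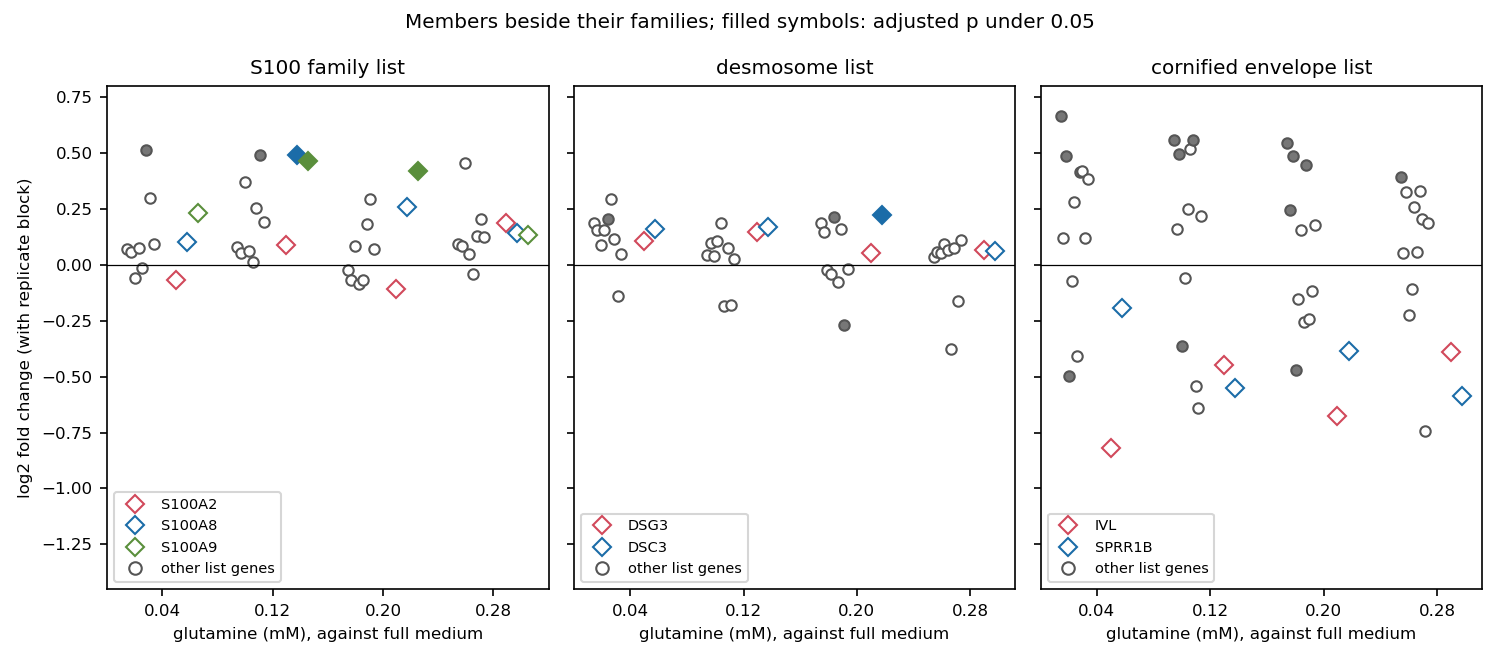
Log2 fold changes against full medium with the replicate block (vertical axis) of the members (diamonds) beside the other tested genes of the S100, desmosome and cornified envelope lists (circles), at each limited glutamine level (0.04 to 0.28 mM). Filled symbols have an adjusted p under 0.05. The genes of the cornified envelope list that rose lie between 0.24 and 0.67, where the highest is the lipid transporter gene ABCA12. IVL and SPRR1B lie below 0 and are open.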

How the data were processed

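The authors deposited 1 table of whole-number read counts, with 62754 genes by Ensembl identifier and 92 ERCC rows, for 15 libraries (5 groups of 3); every column matched a library. The submitters' processing notes name GRCh38.p14, while no aligner, counter or strand setting is given in the sources used here. Per the labels' protocols, libraries came from total RNA with KAPA RNA HyperPrep and RiboErase and were read on a NextSeq instrument.

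The 10 members, the lists of related genes and the markers were chosen with earlier results of these data known. Counts were used as deposited. edgeR 4.0.16 under R 4.3.3 filtered genes (filterByExpr, minimum count 10, minimum total 15, 13828 genes kept), scaled by TMM and fitted all 15 libraries with 1 term per group by quasi-likelihood, with Benjamini-Hochberg adjustment over all genes tested and a threshold of 0.05. The slope was fitted in 12 limited libraries. CPM use TMM-scaled library sizes, log2 CPM a prior count of 2. Intervals are at 95%.

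This fit had no block. Whether replicate numbers pair the samples was checked before calls were compared: with group means removed, all 30 same-number pairs correlated above 0.1 (r 0.184 to 0.489), pairs of different numbers lay between -0.647 and 0.0549, and each of the 15 libraries was closest to one of its own number. Pairs of different numbers include libraries of the same group, whose deviations from the group mean cancel. The negative end of that range is therefore set by the method and says nothing about pairing. As all same-number pairs correlated positively, the fit with the number as a block is given beside the fit without it. The labels do not say what a number stands for, so p-values may measure culture, day or library preparation. No 2 libraries of a group were the same library by their counts.

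Named genes are all members, at most 4 per other list by smallest adjusted p at 0.04 mM with the block, and the 3 genes most like each tested member (r over 15 libraries, mean of at least 5 CPM). Other settings tried were ERCC scaling, DESeq2 1.42.0 whole and its size factors alone, 2 other filters, the 2 groups alone, thinning to 3704170 counts, leaving out each library and leaving out 2 libraries with over 1% mitochondrial rRNA. Limits at 0 are 3 counts a library and cover counting error only. Coordinates and promoters are RefSeq on GRCh38.p14; exon lengths and coding sequences are those of GENCODE 29, which the counting need not have used. The code was tested on simulated data. The proteome of the title was not analysed here, and 1 gene of the list of squamous regulators is not reported here.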

Additional observations from a re-analysis of the deposited data

Results flagged for a closer look

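S100A2 lay below the full-medium library of the same number in all 3 libraries at 0.20 mM (log2 ratios -0.19, -0.11 and -0.03) and above it in all 3 at 0.28 mM (0.25, 0.20 and 0.10), a difference of -0.296 between the mean ratios. The direct comparison of 0.20 with 0.28 mM gave a log2 fold change of -0.30 (SE 0.093, 95% interval -0.49 to -0.11) and did not pass, with an adjusted p of 0.123 with the replicate block and 0.999 without it (edgeR quasi-likelihood test). S100A2 ranged from 1836 to 3554 CPM over the replicates at 0.20 mM and from 2018 to 4843 CPM at 0.28 mM. No group has more than 3 samples, so single libraries were not examined as outliers.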

How the results depend on the processing

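Counts of members passing are given for the 8 tested, but 2 settings with another filter tested other members. With no filter beyond 1 count all 10 members were tested, and with the 5 CPM filter IVL and SPRR1B were not. In any comparison edgeR with TMM and no block called none, and no alternative without the replicate block called any. With the block, 2 passed at 0.12 mM and 2 at 0.20 mM, and none at 0.04 or 0.28 mM or in the slope. At 0.04 mM, 1 member (S100A9) passed with the block under DESeq2, DESeq2 size factors or the filter of 5 CPM in 3 libraries. At 0.12 mM, 2 passed with the block under DESeq2, its size factors, no filter beyond 1 count, the 5 CPM filter, the 2 groups alone and thinning, 1 without the libraries with over 1% mitochondrial rRNA and 0 with ERCC scaling; on leaving out 1 library the count ran from 0 to 2 over both fits and from 1 to 2 with the block. At 0.20 mM, 3 passed with the block under DESeq2, no filter, the 5 CPM filter or without the 2 mitochondrial-rRNA libraries (SFN, lower, beside S100A9 and DSC3), 2 with DESeq2 size factors, 1 with the 2 groups alone or thinning and 0 with ERCC scaling; on leaving out 1 library it again ran from 0 to 2 and, with the block, from 1 to 2. S100A2 (1 member) passed for 0.04 against 0.28 mM with the block and no filter, and S100A9 (1 member) in the slope with the block over all 15 libraries. With ERCC scaling and the block the median log2 fold change of all genes was -0.177 at 0.12 mM, -0.129 at 0.28 mM, -0.0448 at 0.20 mM and 0.000475 at 0.04 mM. Signs of uncalled differences turned as follows. ERCC scaling gave, without and with the block, -0.0979 and -0.115 for S100A2, -0.0538 and -0.0247 for DSG3 and -0.0334 and -0.00385 for DSC3 at 0.12 mM, and -0.0523 and -0.061 for DSG3 and -0.0607 and -0.0661 for DSC3 at 0.28 mM. Without the block it also gave -0.0108 for DSG3 at 0.20 mM and -0.00381 for S100A9 at 0.28 mM. Thinning gave, without and with the block, 0.381 and 0.398 for SPRR1B at 0.04 mM, -0.0812 and -0.0844 for DSG3 at 0.20 mM and -0.00936 and -0.00947 for DSG3 at 0.28 mM. Without the 2 mitochondrial-rRNA libraries, the block gave -0.0187 for S100A8 at 0.04 mM and -0.0226 for S100A2 at 0.12 mM, and no block gave 0.131 for S100A2 and 0.0845 for SFN at 0.04 mM and 0.0915 for SFN at 0.12 mM. Leaving out 1 library in turn, over both fits, gave at 0.04 mM -2.27 to 0.603 for IVL, -0.616 to 0.564 for SPRR1B, -0.366 to 0.178 for S100A2, -0.0992 to 0.326 for S100A8 and -0.281 to 0.157 for SFN. At 0.12 mM it gave -1.07 to 0.851 for IVL, -1.03 to 0.195 for SPRR1B, -0.31 to 0.34 for S100A2 and -0.325 to 0.147 for SFN. At 0.20 mM it gave -1.18 to 0.442 for IVL, -0.741 to 0.288 for SPRR1B, -0.383 to 0.132 for S100A2, -0.0334 to 0.488 for S100A8, -0.401 to 0.0257 for SFN and -0.0297 to 0.126 for DSG3. At 0.28 mM it gave -1.56 to 0.886 for IVL, -0.917 to 0.111 for SPRR1B, -0.0971 to 0.483 for S100A2, -0.0778 to 0.359 for S100A8, -0.0393 to 0.314 for S100A9, -0.265 to 0.161 for SFN and -0.0142 to 0.125 for DSG3. The causes were not tested. The test of the replicate number called 6 members, and 4 to 8 under its 6 alternatives. The share of all genes that passed it was 50.2%, and under the alternatives it ran from 20.1% (no filter beyond 1 count) to 78% (ERCC scaling). The 8 members passed with ERCC scaling. With the 5 CPM filter, which left IVL and SPRR1B untested, the 4 were S100A8, S100A9, SFN and S100A2, and 60.8% of genes passed. With no filter beyond 1 count 7 members passed, SPRR1A among them. IVL and SPRR1B had the fewest counts of the 8 tested members, and SPRR1A and LCN2 were tested only with no filter beyond 1 count.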

Other observations

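The ratio of S100A9 to S100A8 counts was 1.75 to 2.97 over the 15 libraries. It was lowest in replicate 1 of each group, at 1.99 with 0.04 mM, 1.82 with 0.12 mM, 2.09 with 0.20 mM, 1.93 with 0.28 mM and 1.75 in full medium. The ranges of the groups overlapped.

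SPRR1A made up 0 to 15.4% of the summed SPRR1A and SPRR1B counts of a library. All replicate 2 libraries but that at 0.20 mM had no SPRR1A count, and replicate 3 at 0.12 mM had none either.

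S100A2, with 444420 counts in all, was more abundant than 99.9% of the tested genes and SFN than 99.5%. DSC3 was above 91.1%, S100A9 above 80.4%, DSG3 above 80.1% and S100A8 above 61.6%, while SPRR1B was above 20.6% and IVL above 3.85%, on the scale of CPM with no correction for length.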
